A study of Mus musculus with 11 samples.

Results

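The genes described are 49 genes of DNA replication and mitosis, measured in mouse liver on 1-colour Agilent arrays. A member is a gene on a fixed list of S phase, G1 and mitosis genes whose symbol is reached, through a RefSeq table of the mouse, from the accession of a probe that is not a control. All 49 had a probe on the array. Of these, 45 were well above background on at least 3 of the 11 arrays and were among the 22282 genes and unnamed transcripts tested, of which 13963 had a symbol. The other 4 were Cdk1, the kinase that drives entry into mitosis, Aurkb, the kinase of the chromosomal passenger complex, Ccne2, a G1 cyclin, and Chek1, a checkpoint kinase. Cdk1, Aurkb and Ccne2 were well above background on 0 arrays and Chek1 on 2, so their levels were not measured here and no statement is made about them.

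A dividing cell copies its DNA in S phase and parts the copies in mitosis. The genes for both steps are mostly silent in resting cells, where the retinoblastoma family and the DREAM complex hold E2F target genes off, and they are switched on in sequence when a cell enters the cycle. S phase genes are turned on first through E2F factors, and the genes of G2 and mitosis later through B-Myb, FoxM1 and a promoter element named the CHR. Hepatocytes of the adult liver rarely divide, whereas the liver of a juvenile mouse is still growing.

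The livers came from 11 male mice of a mixed background that was mainly B6SJL with a small share of 129S6. They fell into 4 wild-type (WT) mice, 3 mice labelled β-catΔEx3, which express a mutant β-catenin that lacks the part encoded by exon 3 and escapes degradation, and 4 mice labelled β-catΔEx3:Myc. No mouse was treated, and each array carried total RNA of 1 liver labelled with Cy3. The age is given as a range of 22 to 40 days for 8 mice, and as 31 days for WT replicate 4, 30 days for β-catΔEx3 replicate 3 and 29 days for β-catΔEx3:Myc replicate 4. The design text describes the livers as bearing tumours, WT included, and counts the last group only as expressing c-Myc. The sources used here do not give the promoter or Cre behind the transgenes, or whether tumour or surrounding liver was taken. The labels do not say that mice were littermates or paired, and the p-values below measure the spread between these mice.

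WT replicates 1 to 3 were on slide 1, and replicates 1 and 2 of β-catΔEx3 and of β-catΔEx3:Myc shared slide 2. β-catΔEx3:Myc replicate 3 was alone on slide 3, while WT replicate 4, β-catΔEx3 replicate 3 and β-catΔEx3:Myc replicate 4 shared slide 4. Over probes, the 75th percentile of the signal, called upper quartile below, was 192.6 to 303.6 scanner units per array. Between 47.85% and 52.42% of probes passed as well above background, and saturated spots were absent. A level below is the log2 processed signal of a gene minus the upper quartile of its array, so 0 stands for that quartile, and the levels of different genes are not compared. All 8 measured hepatocyte markers, Alb, Ttr, Hnf4a and others, were above background on every array. In β-catΔEx3, 5 of these 8 were called lower than in WT (median log2 fold change -0.60), and in β-catΔEx3:Myc 4 of 8 (median -0.57), against 15.4% and 17.3% of all genes called lower (limma, adjusted p of 0.05). Myc had levels of 2.30, -0.12, 0.22 and -0.52 on WT replicates 1 to 4, of 2.44, 1.39 and 2.08 on β-catΔEx3 replicates 1 to 3, and of 4.65, 3.13, 2.55 and 4.98 on β-catΔEx3:Myc replicates 1 to 4. Myc was higher in β-catΔEx3:Myc than in WT by 3.36 ± 0.68 on the log2 scale (SE, limma, adjusted p = 0.00286). It was not called in β-catΔEx3 against WT (1.5, adjusted p = 0.132). Between the mutant groups it was not called either (1.86, adjusted p = 0.4), although their arrays did not overlap. The level of Ctnnb1, the β-catenin gene, was not called different in any comparison.

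The members fall into S phase and G1 genes on one side and mitosis genes on the other, and the promoters of these sides hold different short elements. The transcription factors E2f1, E2f8, Foxm1 and Mybl2 were counted with S phase and G1, although B-Myb and FoxM1 act on mitotic genes. Foxm1 had no promoter window. Promoter windows of RefSeq (GRCm38.p6, 250 bases before to 50 bases after a gene's start) matched 38 of the 49 members, with 41 windows. The search covered 3 elements on both strands: the CHR (TTTGAA), an E2F site (any of TTTCCCGC, TTTGGCGC, TTTCGCGC and TTTGCCGC) and the CCAAT box (CCAAT). The CHR letters lay in 14 of 20 windows of mitosis members (70.0%), in 3 of 21 windows of S phase and G1 members (14.3%) and in 17.9% of 32851 windows of all genes. The S phase and G1 windows with the CHR include that of E2f8. The E2F letters lay in 1 of 20 mitosis windows (5.0%), in 7 of 21 S phase and G1 windows (33.3%) and in 2.26% of all windows. CCAAT was in 85.0% and 61.9% of the windows of these sides, against 37.4% of all. A match of letters is a description of the window and not a measured binding site.

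The CHR is shown for 6 members whose levels follow below, from genes of anaphase (Cdc20, Ube2c), the spindle (Prc1, Kif11), chromosome structure (Top2a) and mitotic entry (Ccnb2). Each stretch is written 5′ to 3′ on the strand of the gene, with the CHR letters, TTTGAA or their complement TTCAAA, in capitals. Counted from the annotated start as position 0, the CHR shown begins at -18 in Cdc20, -29 in Ube2c, -30 in Prc1, -23 in Top2a, -19 in Kif11 and 4 in Ccnb2. Outside the stretches shown, Top2a holds a further match at -179 and Ccnb2 one at -167. The match in Prc1 begins at -5 when counted from its other annotated start.
Cdc20, chr4:118437334-118437403, minus strand: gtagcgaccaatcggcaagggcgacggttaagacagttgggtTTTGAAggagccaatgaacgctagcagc
Ube2c, chr2:164769859-164769938, plus strand: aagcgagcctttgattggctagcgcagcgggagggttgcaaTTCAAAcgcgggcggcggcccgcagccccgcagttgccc
Prc1, chr7:80294401-80294485, plus strand: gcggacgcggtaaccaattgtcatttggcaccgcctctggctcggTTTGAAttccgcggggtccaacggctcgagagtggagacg
Kif11, chr19:37376322-37376391, plus strand: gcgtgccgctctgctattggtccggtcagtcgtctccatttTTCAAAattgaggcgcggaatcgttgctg
Top2a, chr11:99024180-99024279, minus strand: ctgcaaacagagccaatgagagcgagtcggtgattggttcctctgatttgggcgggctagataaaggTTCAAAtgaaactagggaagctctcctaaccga
Ccnb2, chr9:70421545-70421624, minus strand: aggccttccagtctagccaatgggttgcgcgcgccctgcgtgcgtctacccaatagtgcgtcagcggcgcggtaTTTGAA

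The E2F letters are shown for 3 genes that load or form the replicative helicase, again in capitals. In Mcm6 they begin at -110, -106 and -47, and in Mcm5 at -153 and -149; in both genes the first 2 matches overlap and are printed as 1 run of capitals. The match in Cdc6 begins at -138.
Mcm6, chr1:128359735-128359825, minus strand: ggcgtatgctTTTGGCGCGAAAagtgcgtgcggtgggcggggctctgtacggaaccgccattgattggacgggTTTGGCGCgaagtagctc
Mcm5, chr8:75109344-75109444, plus strand: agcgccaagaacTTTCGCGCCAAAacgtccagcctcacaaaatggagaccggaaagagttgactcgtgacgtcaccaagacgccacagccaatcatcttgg
Cdc6, chr11:98907986-98908086, plus strand: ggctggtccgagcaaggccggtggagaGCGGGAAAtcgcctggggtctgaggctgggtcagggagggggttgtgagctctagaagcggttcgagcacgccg
The promoter stretch of Pcna, the sliding clamp of DNA polymerases, is shown beside them because Pcna spread least between arrays of a group among the members, and its window held neither the CHR nor these E2F letters. Neither was found in the window of Bub1, among the widest members, nor in that of Rrm1, among the narrowest. A link between these letters and the spread was not tested.
Pcna, chr2:132253171-132253280, minus strand: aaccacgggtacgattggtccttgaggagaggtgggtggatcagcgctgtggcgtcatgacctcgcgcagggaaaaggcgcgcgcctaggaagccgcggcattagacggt

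Array by array, the members moved together inside each group, and the arrays on which they were high came from different groups. For each gene, the deviation of an array from the gene's mean over the 11 arrays was taken on the log2 scale. On β-catΔEx3 replicate 2 the median deviation of the 45 members was 0.99, with 42 members above their own mean. On β-catΔEx3:Myc replicates 1 and 4 it was 0.88 (43 members above) and 0.85 (44 above). WT replicates 1, 2 and 3 lay close together, at 0.18, 0.24 and 0.25, with 30, 34 and 31 members above. The remaining arrays were low: β-catΔEx3 replicate 1 at -0.40 (6 above), β-catΔEx3:Myc replicate 3 at -0.53 (8 above), WT replicate 4 at -0.71 (8 above), β-catΔEx3:Myc replicate 2 at -1.02 (4 above) and β-catΔEx3 replicate 3 at -1.04 (4 above). Over all genes tested the same medians ran from -0.12 to 0.10.

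**Figure D1:**
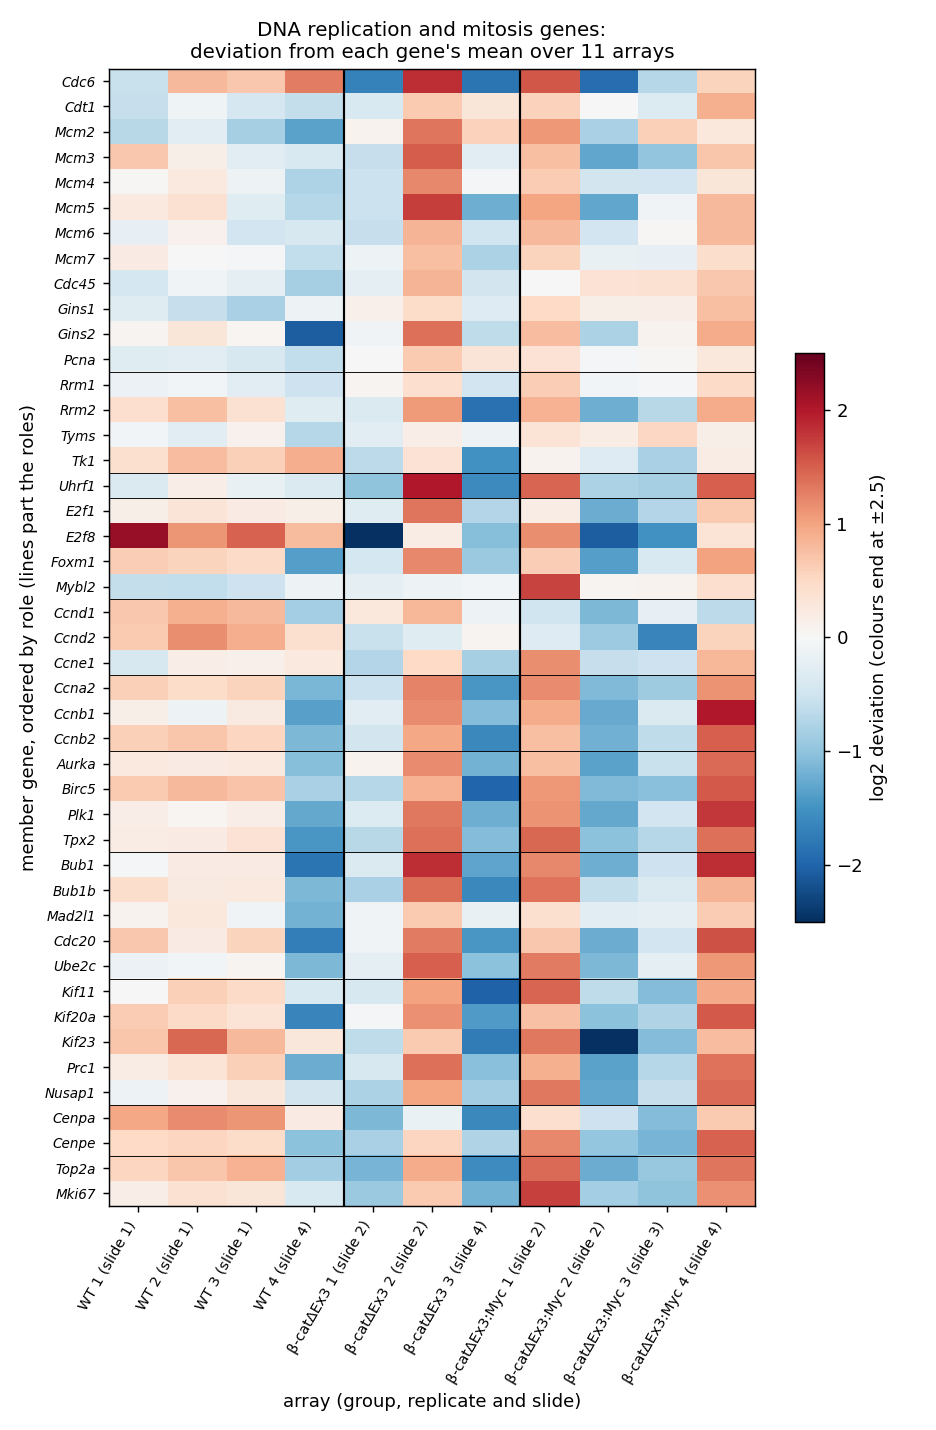
Deviation of each of the 45 measured members (rows, ordered by role) from its own mean over 11 arrays (columns, with group, replicate and slide), as log2 values from blue (low) to red (high). β-catΔEx3 replicate 2 and β-catΔEx3:Myc replicates 1 and 4 are red in nearly every row, and WT replicate 4 and β-catΔEx3 replicate 3 are mostly blue.

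Within each group a single array set an end of the range for most members. β-catΔEx3 replicate 2 was the highest of its group in 43 of 45 members, with Mybl2 and Ccnd2 as the exceptions, and replicate 3 was the lowest in 34. Replicate 2 exceeded replicate 3 by a median of 2.01 on the log2 scale, or 4.03-fold, and exceeded replicate 1 in all 45 members by a median of 2.68-fold. Among the β-catΔEx3:Myc arrays, replicate 1 was the highest in 20 members and replicate 4 in 23, and replicate 2 was the lowest in 33. Replicates 1 and 4 differed from each other by a median of -0.04, with replicate 1 the higher in 22 of 45 members. Replicate 1 exceeded replicate 2 in 44 members (median 1.97, or 3.93-fold), with Cdc45 as the exception.

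WT replicate 4 was the lowest WT array in 38 of 45 members. It was the highest in 5, namely Cdc6, Gins1, Tk1, Mybl2 and Ccne1. WT replicates 1, 2 and 3 exceeded it by medians of 0.84, 1.05 and 0.75, or 1.78-fold, 2.07-fold and 1.68-fold. WT replicate 4 is also the WT array that was not on slide 1, so slide and mouse cannot be told apart for it.

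**Figure D2:**
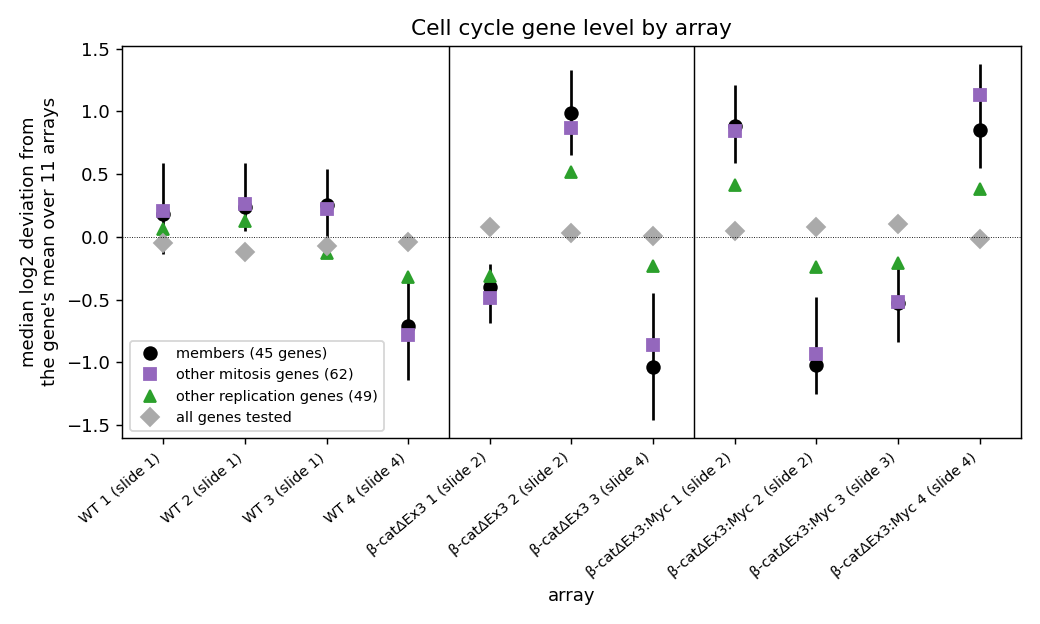
Median log2 deviation from the gene's mean over 11 arrays, for the 45 members (black, bars from the lower to the upper quartile), 62 other mitosis genes (purple), 49 other replication genes (green) and all genes tested (grey), on each array. The 3 gene sets lie furthest above 0 on β-catΔEx3 replicate 2 and β-catΔEx3:Myc replicates 1 and 4, and less far above 0 on WT replicates 1 and 2. All genes stay between -0.12 and 0.10.

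Genes outside the member list followed the same arrays. Of a further list of 70 mitosis genes, 62 were tested, and their median deviations were 0.87 on β-catΔEx3 replicate 2 and 0.84 and 1.13 on β-catΔEx3:Myc replicates 1 and 4. On WT replicate 4, β-catΔEx3 replicate 3 and β-catΔEx3:Myc replicate 2 they were -0.78, -0.86 and -0.93. The 49 tested of 54 other replication genes moved less, with 0.52, 0.41 and 0.38 on the first 3 of these arrays and -0.32, -0.23 and -0.24 on the last 3. Among the members, the 12 licensing and fork genes had medians of 0.69 and 0.68 on β-catΔEx3:Myc replicates 1 and 4, against 1.32 and 1.36 for the 5 motor and spindle genes. This order did not hold on β-catΔEx3 replicate 2, with 1.03 against 1.01, or on WT replicate 4, with -0.63 against -0.46.

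Levels of markers of other cell types also differed between these arrays. The summed level of 9 measured immature granulocyte markers (Elane, Mpo, Camp, Ltf and others, log2 of the summed scaled signal) was 1.94 to 2.54 on the WT arrays. It was 2.57, 3.67 and 3.26 on β-catΔEx3 replicates 1 to 3, and 4.49, 3.40, 2.80 and 5.31 on β-catΔEx3:Myc replicates 1 to 4. It was therefore highest, in each mutant group, on the arrays where the members were highest. Of the 9 markers, 8 were above background on every β-catΔEx3:Myc array and 3 on every β-catΔEx3 array, where Prtn3, Ms4a3 and Ngp were at background on all 3 arrays. Gene by gene, the 9 markers had a median log2 fold change against WT of -1.44 in β-catΔEx3 and 2.48 in β-catΔEx3:Myc. In β-catΔEx3 their sum, in which bright markers weigh most, thus went the other way from their median. The 11 macrophage markers summed to 8.16 to 8.79 in WT, to 4.66, 5.89 and 6.21 in β-catΔEx3, and to 6.0, 4.43, 4.85 and 6.33 in β-catΔEx3:Myc, so the macrophage sum was also highest on β-catΔEx3:Myc replicates 1 and 4, while β-catΔEx3 replicate 3 had a high sum beside low members. The 8 erythroid markers summed to 9.20 to 10.13 in WT, to 6.30, 7.45 and 7.04 in β-catΔEx3, with Gata1 at background, and to 9.43, 8.58, 6.59 and 6.98 in β-catΔEx3:Myc. The 8 megakaryocyte and platelet markers (Pf4, Ppbp, Gp9 and others) summed to 1.69 to 2.20 in WT, to 0.52, 1.55 and 1.29 in β-catΔEx3, and to 3.74, 3.46, 3.06 and 3.85 in β-catΔEx3:Myc, again highest on the arrays where the members of each mutant group were highest. In β-catΔEx3, however, 3 of these 8 markers were above background on every array, and Itga2b, Gp5 and Gp6 were at background on all 3 arrays. Against WT, 21.8% of all genes tested were called higher and 15.4% lower in β-catΔEx3, and 24.8% and 17.3% in β-catΔEx3:Myc. Of the 9 lymphocyte markers, 7 were called lower in each mutant group and 1 higher in β-catΔEx3:Myc (medians of -2.56 and -2.39). Also called lower were 7 and 8 of 10 endothelial markers (medians of -0.79 and -1.52) and 3 and 7 of 10 stellate markers (-0.76 and -1.68). The part of these cells in the members' levels was not tested, and in whole liver RNA more dividing cells and more RNA per dividing cell cannot be told apart.

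Myc did not follow the members in the same way in both mutant groups. Within β-catΔEx3:Myc the arrays with the highest Myc, replicates 4 and 1 at 4.98 and 4.65, were those with the highest members. Within β-catΔEx3 the array with the highest members, replicate 2, had the lowest Myc level, 1.39 against 2.44 and 2.08.

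Mki67, which encodes the proliferation marker Ki-67, had levels of 2.28, 2.49, 2.42 and 1.74 on WT replicates 1 to 4, of 1.19, 2.77 and 0.94 on β-catΔEx3 replicates 1 to 3, and of 3.82, 1.26, 1.12 and 3.27 on β-catΔEx3:Myc replicates 1 to 4. All later values are given in this order of groups and replicates. The mutant arrays fell on both sides of WT, and the groups overlapped. Top2a, the topoisomerase that untangles sister chromatids, had -1.17, -1.01, -0.84 and -2.59 in WT, -2.88, -0.78 and -3.28 in β-catΔEx3, and -0.29, -2.96, -2.66 and -0.38 in β-catΔEx3:Myc. Its lowest and highest β-catΔEx3:Myc arrays differed 6.37-fold, and those of Mki67 6.48-fold.

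Cyclins A2 and B1, the partners of Cdk1 and Cdk2 in S phase and mitosis, showed the same order of arrays. Ccna2 had 1.61, 1.49, 1.57 and -0.12 in WT, 0.49, 2.26 and -0.44 in β-catΔEx3, and 2.21, -0.09, 0.13 and 2.14 in β-catΔEx3:Myc. Ccnb1 had 0.55, 0.28, 0.64 and -0.95 in WT, 0.14, 1.58 and -0.68 in β-catΔEx3, and 1.34, -0.86, 0.04 and 2.40 in β-catΔEx3:Myc. In both genes WT replicate 4 lay among the lowest arrays, and β-catΔEx3 replicate 2 and β-catΔEx3:Myc replicates 1 and 4 lay above every WT array. Ccnb2 ranged 3.53-fold within WT, 6.05-fold within β-catΔEx3 and 6.55-fold within β-catΔEx3:Myc.

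The mitotic kinases and passengers were alike. Plk1, a kinase of spindle assembly and mitotic exit, had 1.23, 1.11, 1.22 and -0.22 in WT, 0.71, 2.38 and -0.17 in β-catΔEx3, and 2.18, -0.23, 0.58 and 2.82 in β-catΔEx3:Myc. Birc5, or survivin, a subunit of the passenger complex, had 3.65, 3.82, 3.71 and 2.20 in WT, 2.29, 3.87 and 1.01 in β-catΔEx3, and 4.08, 1.90, 1.95 and 4.54 in β-catΔEx3:Myc. For Birc5, WT replicates 1 to 3 lay close together, WT replicate 4 was lower, and the β-catΔEx3 arrays spanned 7.27-fold. Aurka, the centrosome kinase, and Tpx2, which activates it on the spindle, had β-catΔEx3:Myc arrays that spanned 6.75-fold and 5.47-fold.

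Among the genes of the spindle checkpoint and the anaphase-promoting complex, Cdc20, the activator of that complex, had 3.10, 2.62, 2.97 and 0.69 in WT, 2.33, 3.72 and 0.96 in β-catΔEx3, and 3.09, 1.17, 1.95 and 4.02 in β-catΔEx3:Myc. WT replicate 4 was the lowest of all 11 arrays for this gene, and the WT arrays spanned 5.29-fold. Ube2c, the ubiquitin-conjugating enzyme of the complex, spanned 2.28-fold in WT, 5.73-fold in β-catΔEx3 and 5.40-fold in β-catΔEx3:Myc. The checkpoint kinase gene Bub1 spanned 9.07-fold and 8.41-fold in the mutant groups, and 1 of its 4 WT arrays was not well above background. Mad2l1, the checkpoint protein that holds Cdc20, spanned 2.77-fold in WT, and less in the mutant groups, with 1.81-fold and 1.88-fold.

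Of the motors, Kif11, Kif20a and Kif23, and the spindle proteins Prc1 and Nusap1, all 5 were above their own mean on β-catΔEx3 replicate 2 and β-catΔEx3:Myc replicates 1 and 4, and 0 of 5 on the other 4 mutant arrays. Prc1, which bundles microtubules of the central spindle, had 1.29, 1.45, 1.71 and -0.13 in WT, 0.71, 2.48 and 0.07 in β-catΔEx3, and 2.0, -0.22, 0.39 and 2.47 in β-catΔEx3:Myc. Kif23 was well above background on 1 of 3 β-catΔEx3 arrays and 2 of 4 β-catΔEx3:Myc arrays, and Kif11 on 2 of 3 β-catΔEx3 arrays, so their low values there are background. Cenpe, a kinetochore motor, spanned 2.54-fold in β-catΔEx3 and 6.23-fold in β-catΔEx3:Myc.

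Among the S phase genes, Mcm5, a subunit of the replicative helicase, had 0.93, 1.07, 0.38 and -0.02 in WT, 0.14, 2.42 and -0.54 in β-catΔEx3, and 1.67, -0.62, 0.60 and 1.49 in β-catΔEx3:Myc. The other helicase subunits spanned less within β-catΔEx3:Myc: Mcm7 1.70-fold, Mcm4 2.13-fold, Mcm6 2.46-fold and Mcm3 4.14-fold. Rrm2, the regulated subunit of ribonucleotide reductase, had 3.37, 3.70, 3.32 and 2.64 in WT, 2.59, 4.01 and 1.08 in β-catΔEx3, and 3.82, 1.72, 2.26 and 3.88 in β-catΔEx3:Myc. Rrm1, the subunit it pairs with, spanned 1.35-fold, 1.88-fold and 1.62-fold in the 3 groups, against 2.09-fold, 7.63-fold and 4.50-fold for Rrm2.

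Uhrf1, which brings DNA methylation to newly copied DNA, had 0.32, 0.85, 0.51 and 0.33 in WT, -0.32, 2.68 and -0.90 in β-catΔEx3, and 2.14, -0.10, -0.15 and 2.19 in β-catΔEx3:Myc. Its WT arrays spanned 1.44-fold and its β-catΔEx3 arrays 12.0-fold. E2f1, an activating E2F factor, had 0.02, 0.19, 0.08 and 0.01 in WT, -0.44, 1.2 and -0.87 in β-catΔEx3, and 0.05, -1.37, -0.86 and 0.53 in β-catΔEx3:Myc. The 4 WT arrays of E2f1 lay within 1.13-fold of each other, and mutant arrays lay on both sides of them. Foxm1, a driver of mitotic gene transcription, had -0.58, -0.64, -0.72 and -2.58 in WT, -1.63, 0.01 and -2.12 in β-catΔEx3, and -0.58, -2.57, -1.57 and -0.20 in β-catΔEx3:Myc.

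**Figure D3:**
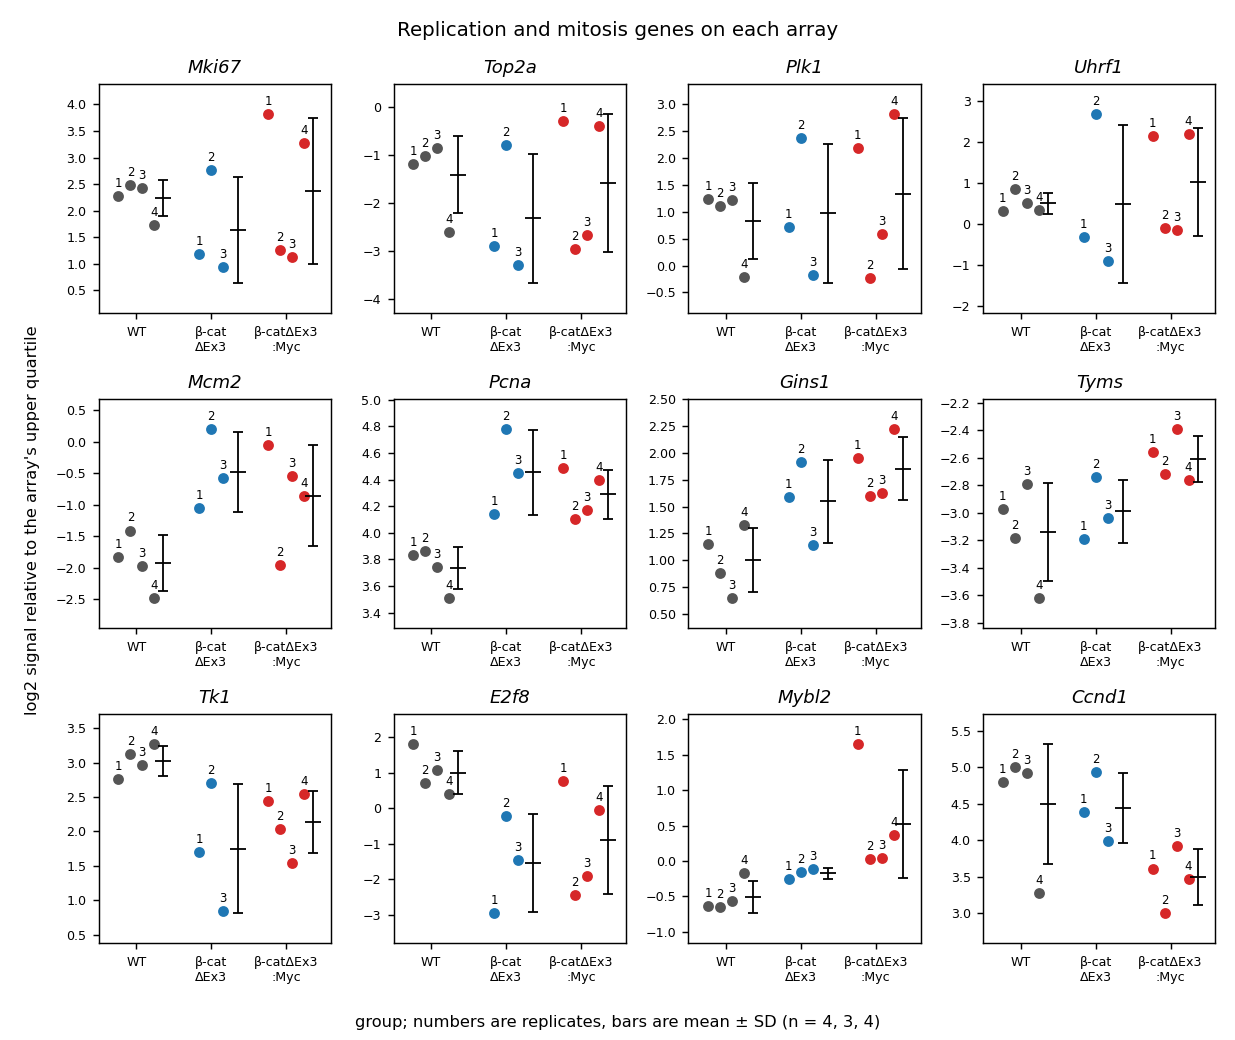
Levels (log2 processed signal relative to the array's upper quartile) of 12 members on each array, by group, with the replicate number beside each point and the mean ± SD beside each group (n = 4, 3 and 4). For Mki67, Top2a and Uhrf1 the mutant arrays lie on both sides of WT. For Plk1 some mutant arrays lie above WT and the others within its range or at its lower end. Pcna and Gins1 spread less, and Ccnd1 is low on all 4 β-catΔEx3:Myc arrays and on WT replicate 4.

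The spread among arrays of a group was larger for the members than for most genes. The residual SD from the fit had a median of 1.01 on the log2 scale for the 45 members, or 2.02-fold, against 0.33, or 1.25-fold, for all genes tested. It was above the median of all genes in 42 members, and above their 90th percentile of 0.80 in 27 (60%). The median range between the highest and lowest array was 2.13-fold within WT, 4.26-fold within β-catΔEx3 and 4.89-fold within β-catΔEx3:Myc. These ranges cover 4, 3 and 4 arrays, and a range depends on the number of arrays. WT replicates 1 to 3 shared slide 1, whereas β-catΔEx3 lay on slides 2 and 4 and β-catΔEx3:Myc on slides 2, 3 and 4. The part of the slides in these ranges was not tested. Bub1 (1.34) and Uhrf1 (1.27) were among the widest, beside Cdc6 (1.47), the helicase loader, whose low values are background because 6 of its 11 arrays did not pass. The narrowest were Pcna (0.22), Tyms (0.27), Gins1 (0.32) and Rrm1 (0.34), all of S phase.

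**Figure D4:**
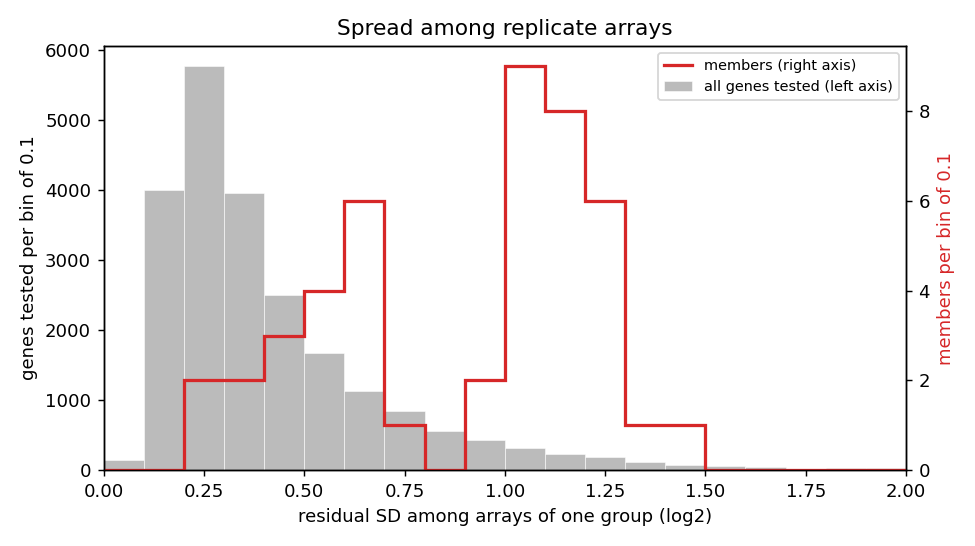
Residual SD among arrays of one group (horizontal axis, log2) for all genes tested (grey bars, left axis) and for the 45 members (red line, right axis), counted in bins of 0.1. The median is 0.33 for all genes and 1.01 for the members.

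Compared with WT, β-catΔEx3 livers showed no common direction over the members. Mcm2 and Pcna were higher, and Tk1, E2f8 and Cenpa were lower. This made 2 of 45 members called higher at an adjusted p of 0.05, against 21.8% of all genes tested, and 3 called lower, against 15.4%. At an unadjusted p under 0.05 there were 7 members, or 15.6%, against 46.8% of all genes. The median log2 fold change of the members was -0.01, with 22 above 0 and 23 below, against 0.10 for all genes. The standard errors differed too, with a median of 0.68 for the members and 0.24 for all genes, so a given change had a larger error in a member. The groups did not overlap in 2 members that were higher and 4 that were lower, against 25% and 18.6% of all genes. On slide 4 alone the median of the members was -0.11, with 22 of 45 above 0. The median was -0.70 without β-catΔEx3 replicate 2, 0.38 without β-catΔEx3 replicate 3 and -0.32 without WT replicate 4. The 3 slide 1 arrays are all WT, so once slide enters the fit as a block the mutants are set against WT replicate 4 only, and 0 of 45 members were called.

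Mcm2, a helicase subunit, had -1.83, -1.41, -1.98 and -2.48 in WT, -1.06, 0.20 and -0.57 in β-catΔEx3, and -0.06, -1.95, -0.55 and -0.87 in β-catΔEx3:Myc. All 3 β-catΔEx3 arrays lay above all WT arrays. The difference was 1.45 ± 0.44 on the log2 scale (SE, limma, adjusted p = 0.0262), and 2.0 in the fit with the slide block (adjusted p = 0.168). The adjusted p was 0.0545 and 0.0621 without WT replicate 3 or 4, and 0.0955 and 0.0563 without β-catΔEx3 replicate 2 or 3. In β-catΔEx3:Myc the difference from WT was 1.07 (adjusted p = 0.0573), and 1.43 (adjusted p = 0.0107) without replicate 2, the low array of that group.

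Pcna had 3.83, 3.86, 3.74 and 3.51 in WT, 4.14, 4.78 and 4.45 in β-catΔEx3, and 4.49, 4.10, 4.17 and 4.40 in β-catΔEx3:Myc. Every mutant array lay above every WT array. It was higher by 0.72 ± 0.18 in β-catΔEx3 (limma, adjusted p = 0.0112, 1.65-fold) and by 0.56 ± 0.17 in β-catΔEx3:Myc (adjusted p = 0.0225, 1.47-fold). Under the slide block the differences were 0.98 (adjusted p = 0.101) and 0.86 (adjusted p = 0.137). In the authors' deposited matrix they were 0.51 (adjusted p = 0.063) and 0.39 (adjusted p = 0.106). The call in β-catΔEx3:Myc was lost without WT replicate 4 (adjusted p = 0.0597) or without β-catΔEx3:Myc replicate 1 (adjusted p = 0.0615).

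Tk1, the salvage kinase that supplies thymidine nucleotides, had 2.76, 3.12, 2.96 and 3.27 in WT, 1.70, 2.71 and 0.84 in β-catΔEx3, and 2.44, 2.03, 1.54 and 2.54 in β-catΔEx3:Myc. Every mutant array lay below every WT array, and WT replicate 4, which was low for most members, was the highest. Tk1 fell by 1.28 ± 0.39 in β-catΔEx3 (limma, adjusted p = 0.0262). In β-catΔEx3:Myc the difference was -0.89 (adjusted p = 0.0704), and it passed the threshold in 6 of 22 alternatives. These were quantile normalization and 2 other array scalings (adjusted p of 0.0488, 0.0444 and 0.0494), only the 2 groups compared (0.0163), and leaving out β-catΔEx3 replicate 2 or 3 (0.0219 and 0.0285). Under the slide block the β-catΔEx3 difference was -1.87 (adjusted p = 0.11), and its adjusted p was 0.0581 and 0.0574 without WT replicate 2 or 4, and 0.0731 and 0.0963 without β-catΔEx3 replicate 1 or 3.

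E2f8, an E2F factor that represses S phase genes late in the cycle, had 1.8, 0.71, 1.08 and 0.40 in WT, -2.95, -0.21 and -1.46 in β-catΔEx3, and 0.77, -2.44, -1.91 and -0.05 in β-catΔEx3:Myc. It fell by 2.54 ± 0.82 in β-catΔEx3 (limma, adjusted p = 0.0323), where all 3 arrays lay below WT. The difference was -1.90 in β-catΔEx3:Myc (adjusted p = 0.0651), where replicate 1 lay inside the WT range, and it was -2.46 without that array (adjusted p = 0.0214). The β-catΔEx3 value was -1.64 under the slide block (adjusted p = 0.519) and lost its call without WT replicate 1, 2 or 3 or β-catΔEx3 replicate 1 or 3, with adjusted p of 0.0771, 0.0547, 0.0637, 0.135 and 0.0708.

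Cenpa, the histone variant that marks centromeres, had 1.13, 1.36, 1.27 and 0.38 in WT, -0.96, 0.00 and -1.45 in β-catΔEx3, and 0.59, -0.35, -0.92 and 0.83 in β-catΔEx3:Myc. All β-catΔEx3 arrays were below all WT arrays, replicate 2 included, where most mitosis genes exceeded WT. It fell by 1.83 ± 0.46 in β-catΔEx3 (limma, adjusted p = 0.0112), with -1.27 under the slide block (adjusted p = 0.274), and the call held without any single array. In β-catΔEx3:Myc the groups overlapped, at -1.0 (adjusted p = 0.086), or -1.26 (adjusted p = 0.04) without replicate 4.

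Compared with WT, β-catΔEx3:Myc livers had 4 members called higher, Gins1, Pcna, Tyms and Mybl2, and 1 called lower, Ccnd2. All genes tested were called higher in 24.8% and lower in 17.3%. At an unadjusted p under 0.05 there were 12 members, or 26.7%, against 50.2% of all genes. The median log2 fold change of the members was 0.19, with 30 of 45 above 0, against 0.13 for all genes. The groups did not overlap in 5 members that were higher, the 4 above and Cdc45, and in 1 that was lower, Tk1, against 24.5% and 17.7% of all genes. The slide pairs gave another picture than the groups as a whole. On slide 4 the β-catΔEx3:Myc array exceeded the WT array in 42 of 45 members, all but Cdc6, Tk1 and E2f8, by a median of 1.51. That pair sets a high mutant array against the low WT array. The median over all arrays was -0.14 without β-catΔEx3:Myc replicate 4, -0.08 without β-catΔEx3:Myc replicate 1, -0.03 without WT replicate 4 and 0.54 without β-catΔEx3:Myc replicate 2. Under the slide block it was 0.94, with 0 members called.

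Gins1, a subunit of the GINS complex of the replicative helicase, had 1.15, 0.88, 0.65 and 1.33 in WT, 1.59, 1.91 and 1.14 in β-catΔEx3, and 1.95, 1.60, 1.63 and 2.22 in β-catΔEx3:Myc. All 4 β-catΔEx3:Myc arrays lay above WT, those with low mitosis genes included. Gins1 was higher by 0.85 ± 0.22 (limma, adjusted p = 0.0116, 1.8-fold), with 0.53 under the slide block (adjusted p = 0.445), and its call held without any single array. In β-catΔEx3 the Gins1 difference from WT was 0.54 (limma, adjusted p = 0.1014). It passed the threshold with normexp (0.04891) and without β-catΔEx3 replicate 3 (0.04579). Gins2, of the same complex, had a difference of 0.65 in β-catΔEx3:Myc (adjusted p = 0.424), with WT replicate 4 at -2.98 against -0.86 to -0.60 on the other WT arrays. Cdc45, which joins GINS in the helicase, had a difference of 0.76 (adjusted p = 0.0552).

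Tyms, thymidylate synthase, had -2.97, -3.18, -2.79 and -3.62 in WT, -3.19, -2.74 and -3.04 in β-catΔEx3, and -2.56, -2.72, -2.39 and -2.76 in β-catΔEx3:Myc. It was higher in β-catΔEx3:Myc by 0.53 ± 0.19 (limma, adjusted p = 0.0486), and the lowest β-catΔEx3:Myc array, at -2.76, lay just above the highest WT array, at -2.79. The call was lost in 16 of 22 alternatives, with adjusted p up to 0.233. These include leaving out WT replicate 1, 2 or 4 (0.0584, 0.1 and 0.117), any β-catΔEx3:Myc array (0.0934, 0.0683, 0.116 and 0.0529 for replicates 1 to 4) or β-catΔEx3 replicate 1 or 3 (0.0541 and 0.0594).

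Mybl2, or B-Myb, which turns on mitotic genes, had -0.64, -0.65, -0.57 and -0.17 in WT, -0.26, -0.16 and -0.11 in β-catΔEx3, and 1.65, 0.03, 0.04 and 0.37 in β-catΔEx3:Myc. It did not take part in the array pattern of the other members in β-catΔEx3, where its arrays lay within 1.11-fold, and each β-catΔEx3:Myc array exceeded all WT and β-catΔEx3 arrays. The difference from WT was 1.03 ± 0.32 (limma, adjusted p = 0.0246, 2.04-fold). It was 0.73 under the slide block (adjusted p = 0.464) and 0.77 with the mean of the gene's probes (adjusted p = 0.086). Its adjusted p was 0.0578, 0.0608 and 0.0544 without WT replicate 1, 2 or 3.

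Of the D cyclins, which start the cycle in G1, Ccnd1 had 4.79, 5.0, 4.92 and 3.27 in WT, 4.38, 4.94 and 3.99 in β-catΔEx3, and 3.61, 3.00, 3.92 and 3.46 in β-catΔEx3:Myc. All β-catΔEx3:Myc arrays were below WT replicates 1 to 3 and all β-catΔEx3 arrays, while WT replicate 4 lay among them. Within WT and β-catΔEx3 its highest and lowest arrays were those of most mitosis genes, replicate 2 and replicate 3 in β-catΔEx3 and replicate 4 as the lowest in WT, whereas in β-catΔEx3:Myc replicate 3 was the highest. The difference between β-catΔEx3:Myc and WT was -1.0 ± 0.39 (limma, adjusted p = 0.0593), and -1.41 (adjusted p = 0.00292) without WT replicate 4. Under the slide block it was -0.09 (adjusted p = 0.913), and on slide 4 alone it was 0.19, in the other direction. It passed the threshold under 4 other scalings of the signal, at -1.17 with quantile normalization, -1.14 and -1.07 with 2 other array scalings and -1.09 in the authors' deposited matrix (adjusted p of 0.0393, 0.0428, 0.0436 and 0.0426).

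Ccnd2 had 0.76, 1.26, 1.0 and 0.50 in WT, -0.46, -0.20 and 0.17 in β-catΔEx3, and -0.23, -0.81, -1.56 and 0.65 in β-catΔEx3:Myc. It fell by 1.37 ± 0.40 in β-catΔEx3:Myc (limma, adjusted p = 0.0186), although replicate 4 of that group lay inside the WT range. Under the slide block the difference was -0.07 (adjusted p = 0.923), and on slide 4 alone it was 0.15. The call was lost without WT replicate 2 (adjusted p = 0.0533) or β-catΔEx3:Myc replicate 2 (adjusted p = 0.0506). In β-catΔEx3 the difference was -1.04 (adjusted p = 0.0818), with no overlap between the groups. This difference passed the threshold in 3 of 22 alternatives. These were only the 2 groups compared (limma, adjusted p = 0.013) and leaving out β-catΔEx3:Myc replicate 3 or 4 (0.03435 and 0.02661). Ccne1, the E cyclin that was measured, had differences of -0.40 and 0.19 (adjusted p of 0.541 and 0.762).

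**Figure D5:**
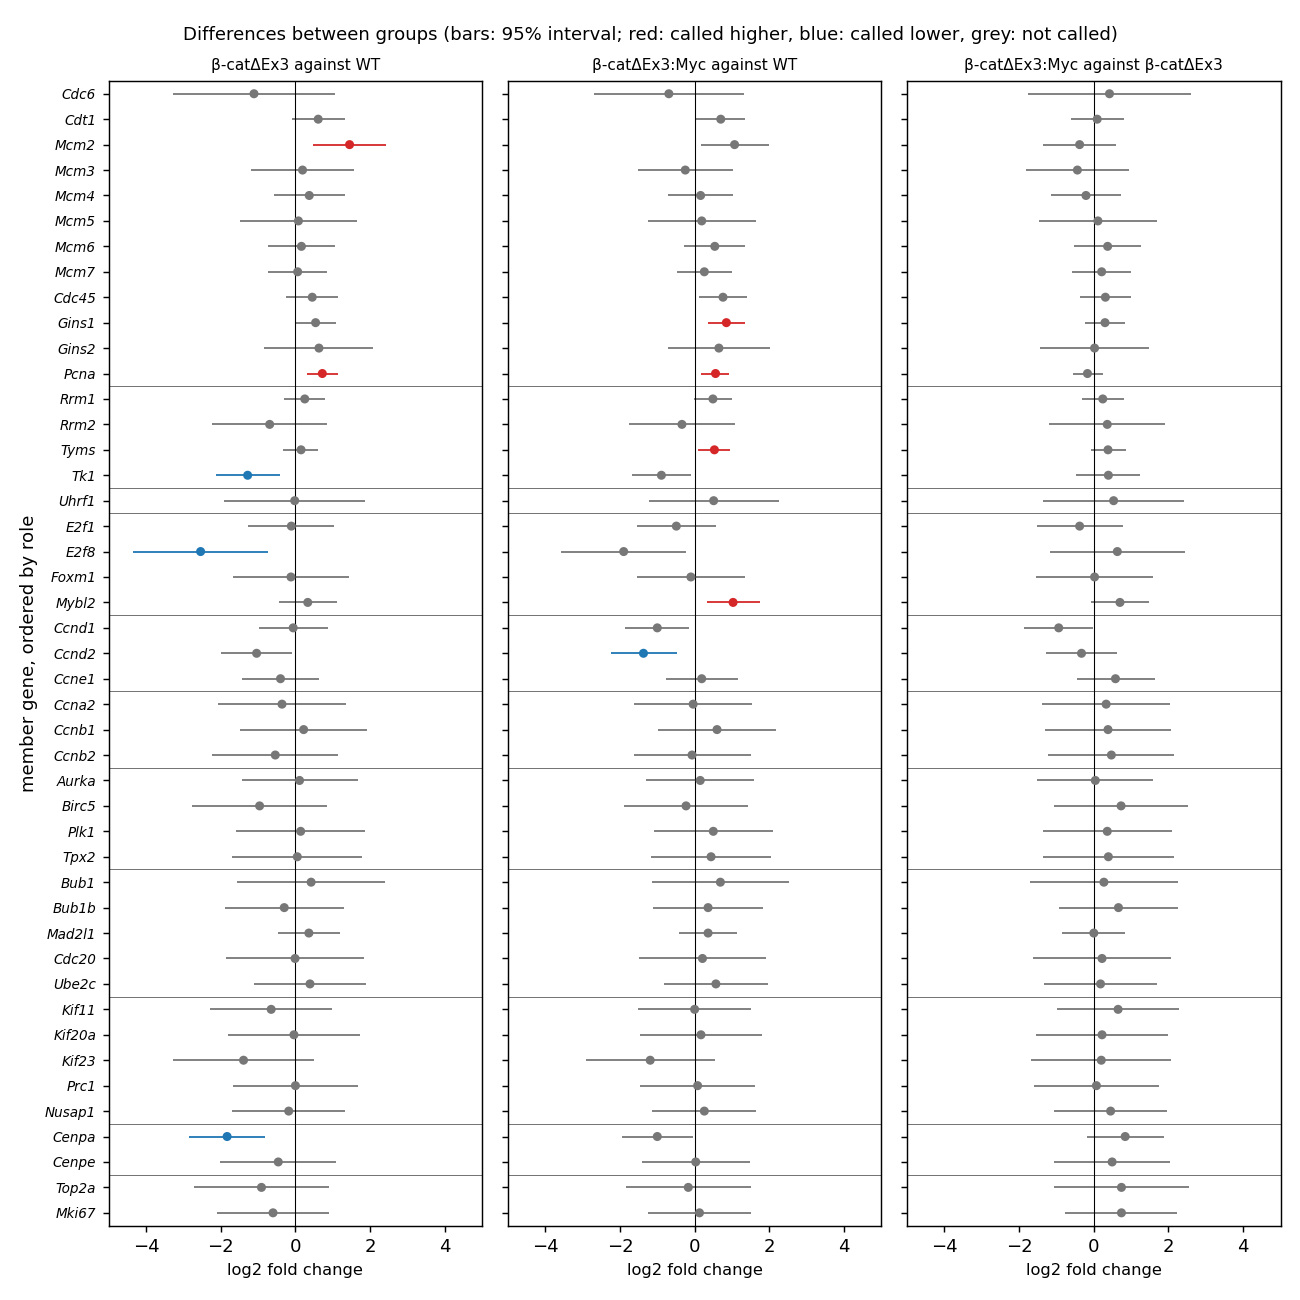
Log2 fold change (points) and 95% interval (bars) of each of the 45 members in the 3 comparisons, ordered by role, with red for called higher, blue for called lower and grey for not called (limma, adjusted p of 0.05). The intervals of the mitosis genes are wider than those of Pcna, Gins1 and Tyms, least so for Mad2l1 and Cenpa. Some S phase genes, such as Cdc6, Uhrf1 and Mcm5, also have wide intervals. No member is called in the right panel.

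Between the mutant groups, 0 members were called in either direction by limma, against 0.13% of all genes called higher in β-catΔEx3:Myc and 0.206% called lower. At an unadjusted p under 0.05 there was 1 member, Ccnd1, against 10.3% of all genes. The median log2 fold change of the members was 0.31, with 37 of 45 above 0, against 0.00 for all genes, and the median 95% interval reached 1.51 to either side. An interval of that width does not show that the groups were alike in a single member. Leaving out β-catΔEx3 replicate 2 gave a median of 0.87 and leaving out replicate 3 of that group gave -0.16, so its sign depended on a single array. The groups did not overlap in 1 higher member, Mybl2, and 1 lower member, Ccnd1, against 3.59% and 4.58% of all genes. Mybl2 differed by 0.70 (adjusted p = 0.539) and Ccnd1 by -0.94 (adjusted p = 0.476).

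The slides gave opposite medians for this comparison. On slide 4 the β-catΔEx3:Myc array exceeded the β-catΔEx3 array in 42 of 45 members, all but Mcm2, Pcna and Ccnd1, by a median of 2.11, or 4.32-fold. On slide 2 the median difference of the group means was -0.19, with 15 members above 0. There, β-catΔEx3:Myc replicate 1 exceeded β-catΔEx3 replicate 1 in 44 of 45 members, and β-catΔEx3:Myc replicate 2 exceeded β-catΔEx3 replicate 2 in 2, Tyms and Mybl2.

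Further genes of the same processes, from lists drawn up for this purpose, were counted in the same fit. Of 49 other replication genes, 9 were higher and 3 lower in β-catΔEx3 than in WT, with a median log2 fold change of 0.18, and 12 were higher and 4 lower in β-catΔEx3:Myc, with 0.27. Of all genes tested, 21.8% were called higher and 15.4% lower in β-catΔEx3, and 24.8% and 17.3% in β-catΔEx3:Myc, so the share of replication genes called higher was near that of all genes. The largest were Mcm10, which helps start the replication fork, Mcm8, a helicase of DNA repair, Chaf1a, a histone chaperone of newly copied DNA, and Blm, the Bloom syndrome helicase. Mcm10 had 4.62, 4.21, 4.62 and 5.62 in WT, 0.20, 2.26 and 0.19 in β-catΔEx3, and 1.52, -0.03, 1.13 and 1.49 in β-catΔEx3:Myc. It fell by 3.89 ± 0.56 and by 3.74 ± 0.52 (limma, adjusted p of 0.000651 and 0.000377), and by 4.84 and by 4.72 under the slide block (adjusted p of 0.0354 and 0.0368). It was measured by 1 probe. Mcm8 moved the other way, with -2.39, -2.43, -2.78 and -3.37 in WT, 0.10, 0.72 and -0.16 in β-catΔEx3, and -0.35, -0.66, 0.11 and -0.64 in β-catΔEx3:Myc. It was higher by 2.96 ± 0.30 and by 2.35 ± 0.28 (limma, adjusted p of 9.29e-05 and 0.000149), and by 3.35 and 2.58 under the slide block (adjusted p of 0.00487 and 0.0102). Both of its probes were higher on every mutant array than on every WT array. Chaf1a was higher by 1.58 in β-catΔEx3 (adjusted p = 0.0141, or 0.0777 under the slide block). Blm was higher by 1.89 in β-catΔEx3:Myc (adjusted p = 0.000125, or 0.0746 under the slide block).

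Of 62 other mitosis genes, 1 was higher and 1 lower in β-catΔEx3, with a median of -0.20, and 4 were higher and 1 lower in β-catΔEx3:Myc, with 0.16. All genes were called higher in 21.8% and 24.8% and lower in 15.4% and 17.3% of cases in these comparisons. Ccnf, the F-box cyclin, fell by 2.10 ± 0.50 and by 1.84 ± 0.46 (limma, adjusted p of 0.00817 and 0.00893), with adjusted p of 0.173 and 0.249 under the slide block. Hmgb2, a chromatin protein, was higher by 0.87 ± 0.21 and by 1.0 ± 0.19 (adjusted p of 0.00832 and 0.00219), and by 1.47 and 1.67 under the slide block (adjusted p of 0.0206 and 0.0151). Cenpm, a centromere protein, was higher by 1.06 ± 0.36 in β-catΔEx3:Myc (adjusted p = 0.035, or 0.13 under the slide block). Pttg1, or securin, had 5.24, 4.8, 4.99 and 2.16 on the WT arrays, so that WT replicate 4 was low for it too.

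Among 21 G1 control genes, 7 were higher and 2 lower in β-catΔEx3, with a median of 0.34, and 7 were higher and 1 lower in β-catΔEx3:Myc, with 0.38, against the same 21.8% and 24.8% of all genes called higher and 15.4% and 17.3% called lower. Cdkn1a, the CDK inhibitor p21, had 1.21, 1.39, 0.52 and -0.96 in WT, 2.47, 2.55 and 1.97 in β-catΔEx3, and 2.29, 2.75, 2.13 and 2.78 in β-catΔEx3:Myc. All mutant arrays were above all WT arrays, those with high and those with low mitosis genes alike. Cdkn1a was higher by 1.79 ± 0.48 and by 1.95 ± 0.44 (limma, adjusted p of 0.0146 and 0.00543), and by 3.19 and 3.47 under the slide block (adjusted p of 0.0112 and 0.00863). Cdkn1c, the CDK inhibitor p57, was higher in β-catΔEx3:Myc by 1.27 ± 0.33 (adjusted p = 0.0108, or 0.0332 under the slide block). Cdk6 and E2f3 were higher in β-catΔEx3 by 0.84 and 0.79 (adjusted p of 0.0223 and 0.00468), and Cdk2 fell by 0.72 in β-catΔEx3:Myc (adjusted p = 0.00402). Under the slide block these adjusted p were 0.368, 0.119 and 0.274. Between the mutant groups, 0 genes of the 3 lists were called, with medians of 0.12 for replication, 0.38 for mitosis and -0.02 for G1 control.

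Of the members, 8 had several probes that passed the filter on background. These probes differed in the sign of the fold change for Ccnb1, Mybl2 and Mad2l1 in β-catΔEx3 against WT, for Ccne1, Cdc6 and Mad2l1 in β-catΔEx3:Myc against WT and for Mad2l1 between the mutant groups. For Mybl2 in β-catΔEx3:Myc both probes were higher than WT, by 1.03 and 0.50.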

How the data were processed

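Liver RNA of 11 mice was read on 1-colour arrays. Per the file headers, the authors used Agilent Feature Extraction 10.7.1.1, and the deposited files hold processed signals as intensity on a linear scale with the local background subtracted, the median intensity of each spot and of its background, and spot flags. A matrix of log2 values, deposited by the authors too, served for an alternative only. Steps that no header or label records are not given in the sources used here.

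Control spots and, per array, 137 to 209 spots with an outlier flag were left out, replicate spots of the 55681 probes were averaged as log2 values, and the 75th percentile of the array was subtracted. A probe was kept if it was well above background on at least 3 arrays (29695 probes). Probes were named by matching the accession in the files to the RefSeq gene list, in which 26582 probes found a symbol, and a gene with several probes is represented by the one with the highest mean. Means of the 3 groups were fitted to all 11 arrays in R 4.3.3 with limma 3.58.1 (and data.table, version 1.17.8, to read the files), using empirical Bayes moderation (8 residual and 2.52 prior degrees of freedom), and 2-sided p-values were adjusted by Benjamini-Hochberg over 22282 genes and unnamed transcripts, at 0.05. The fit was tested on simulated data. The number of arrays limits the precision.

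The comparisons were those between the 3 groups. Named are all members by role, with full values for those called in a comparison and for a fixed set, and up to 3 called genes of each further pathway list per comparison. The members and lists were chosen with earlier results of these data known. For the normexp alternative (offset 50) the median foreground signal was used, because these files hold no mean foreground column. The 22 alternatives are given in the closing section. Sequences come from a RefSeq promoter table (GRCm38.p6), and the files' probes are given no coordinates here.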

Additional observations from a re-analysis of the deposited data

Results flagged for a closer look

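In each group of 4 arrays (WT and β-catΔEx3:Myc), 22 named members were examined for an array far from the other 3. For a single gene, chance gives such a gap in about 1 in 20 groups. In 5 members it was found, each time on WT replicate 4, which was below the other WT arrays. The transcription factor Foxm1 was at -2.58 there, against -0.72 to -0.58 on WT replicates 1 to 3. The G1 cyclin Ccnd1 was at 3.27, against 4.79 to 5.0. The S phase cyclin Ccna2 was at -0.12, against 1.49 to 1.61. Birc5, of the passenger complex, was at 2.20, against 3.65 to 3.82. The mitotic kinase Plk1 was at -0.22, against 1.11 to 1.23. WT replicate 4 was on slide 4 and the other WT arrays were on slide 1, and mouse and slide cannot be told apart. The members moved together from array to array, so the 5 gaps are not independent of each other. Groups of 3 arrays were not examined, so the high β-catΔEx3 replicate 2 could not be found this way.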

How the results depend on the processing

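Counts of called members were small and changed with the processing, up as well as down. With normexp Gins1 joined the members called higher in β-catΔEx3, and with only the 2 groups compared Ccnd2 joined those called lower. In β-catΔEx3 against WT, 2 members were called higher; there was 1 with quantile normalization and with the authors' deposited matrix, and 0 with the 75th percentile taken over probes above background on all arrays and with slide as a fixed block. The 3 called lower became 0 with the fixed block. Without a single array these counts ranged from 1 to 2 and from 1 to 4; there was 1 higher without WT replicate 3 or 4 or β-catΔEx3 replicate 2, and 1 lower without WT replicate 2 or either of β-catΔEx3 replicates 1 and 3.

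In β-catΔEx3:Myc against WT, the 4 called higher became 2 with quantile normalization and with the 75th percentile over probes above background on all arrays, and 0 with the fixed block; without a single array they ranged from 2 to 6, with 2 without WT replicate 1, 2 or 4 or β-catΔEx3:Myc replicate 1. The 1 called lower became 3 with quantile normalization, with that percentile and with median scaling, 2 with normexp, with the authors' deposited matrix and with only the 2 groups compared, and 0 with the fixed block. Without a single array it ranged from 0 to 2, with 0 without WT replicate 2 or β-catΔEx3:Myc replicate 2 and 2 without WT replicate 4, β-catΔEx3:Myc replicate 1 or 4 or any β-catΔEx3 array. Between the mutant groups the counts were 0 in every alternative. With no filter on dim probes, E2f8 lost its call in β-catΔEx3 and Tyms lost its call in β-catΔEx3:Myc. With only probes above background on every array of a group, Cdc45 was also called higher in β-catΔEx3:Myc. With the mean of a gene's kept probes, Mybl2 lost its call in β-catΔEx3:Myc. Slide as a random block kept all 10 calls. The cause of these changes was not tested, except that the fixed block compares the mutants with WT through slide 4 alone. No called member changed sign in the alternatives run. The 75th percentile over probes above background shifted the median of all genes by -0.19 and -0.14 in the comparisons with WT, and median scaling by -0.12 between the mutant groups; over the scalings the members' median ran from -0.19 to 0.05, from 0.05 to 0.19 and from 0.19 to 0.35. No paired analysis was possible because the labels give the groups no shared replicate numbers; slide, which some arrays of different groups share, was the block used.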
